A study of Sus scrofa domesticus with 28 samples.

Results

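SGCE and SGCD encode epsilon- and delta-sarcoglycan, single-pass membrane proteins that sit in a glycoprotein complex at the cell surface. They are 2 of 3216 genes to which the probes of a pig array could be assigned by RefSeq accession, and they were chosen from earlier results of these arrays, on measured values that are not stated further. Their own differences between groups are therefore given as descriptions, with a standard error and with no test. SGCE had 2 probes on the array and SGCD had 1, and all 3 passed the filter on dim probes.

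Sarcoglycans associate with dystroglycan and dystrophin, which together link the matrix outside a cell to actin inside it. In skeletal and heart muscle the complex holds alpha-, beta-, gamma- and delta-sarcoglycan, and loss of one of these causes a muscular dystrophy in humans. Epsilon-sarcoglycan resembles the alpha form but is made in many tissues besides muscle. In humans and mice SGCE is an imprinted gene, read mainly from the paternal copy, and its neighbour PEG10 is imprinted in the same direction. In RefSeq's pig annotation (assembly Sscrofa11.1) SGCE and PEG10 are also listed next to each other.

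The 28 biopsies came from 2 juvenile castrated male red Duroc pigs, numbered 49 and 50 in the labels, a breed used as a model of raised scars. They comprised 4 of unwounded control skin (baseline, sides L and R of each pig), 4 of early sham-treated hyperpigmented (hyper) scar and 4 of early sham-treated hypopigmented (hypo) scar. Mid and late scar gave 2 biopsies, 1 from each pig, for each combination of pressure or sham treatment with hyper or hypo pigmentation. The titles also hold a number that is higher in later phases, with no stated unit. In mid and late scar every pressure biopsy was from side R and every sham biopsy from side L, so treatment and side cannot be told apart. All hyper biopsies carry the code a1 and all hypo biopsies the code a3, and what the code marks cannot be told apart from pigmentation.

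Each biopsy was labelled with Cy5 and hybridised against 1 universal pig reference RNA labelled with Cy3. Levels below are normalised log2 ratios of biopsy to reference, so a value of 1 means 2 times the reference, and differences are log2 differences between groups. By the criterion of the scanner program, 31.4 to 55.7% of probes per array had a Cy5 signal well above background. Of 10 listed keratinocyte genes 3 were measured, DSP, CDH1 and EPCAM. Their mean level, as log2 ratio minus the median over arrays, was 1.93 to 2.19 in control skin, against -3.51 to 1.37 in scar. This level is relative, so it does not show how much epidermis a biopsy held. All arrays are of bulk tissue, in which fewer cells of a type and less RNA per cell cannot be told apart. Only 2 animals were sampled, so an adjusted p reflects how biopsies of these animals vary and says nothing of how pigs vary.

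A pair of arrays stood apart by their skeletal muscle genes, and this bears on SGCD throughout. The muscle level of a biopsy is the mean over 32 measured of 44 listed muscle genes of the log2 ratio minus its median over all arrays. It was 4.66 in the late pressure hyper biopsy of pig 49 and 3.87 in the mid pressure hyper biopsy of the same pig. It was 2.49 in 1 early hypo biopsy (side L of pig 50) and 1.52 in 1 late sham hyper biopsy (pig 49), and at most 0.84 in the other 24. On the first 3 of these arrays 32 of 32 muscle genes were above background, on the fourth 31, and on the other 24 arrays 24 to 30. Adipocyte genes were also high on these 2 arrays, at 1.76 in the late and 1.85 in the mid biopsy, against 0.67 to 1.66 in control skin. Results of SGCD that rest on these arrays are given with and without them.

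The 2 genes gave signals of different strength. The brighter SGCE probe, which stands for the gene below, was above background on 28 of 28 arrays with a median Cy5 signal of 615. The other SGCE probe was above background on 19 of 28 arrays with a median of 116, close to the limit of the scanner. The SGCD probe was above background on 23 of 28 arrays with a median of 158. The 5 arrays on which SGCD was not above background were both mid sham hyper, both late pressure hypo and the late sham hypo biopsy of pig 50.

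SGCE was highest in early scar and lower in most mid and late scars, by its brighter probe. In control skin its log2 ratio was 0.83 and 1.29 in pig 49 and 0.49 and 1.54 in pig 50. In early hyper scar it was 1.43 and 1.80 in pig 49 and 1.82 and 1.34 in pig 50. In early hypo scar it was 1.98 and 1.81 in pig 49 and 1.77 and 2.23 in pig 50. Thus 6 of 8 early scars lay above every control biopsy, and 2 early hyper scars lay below the highest control.

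Mid scar spread more widely. In pig 49 SGCE was 1.16 in pressure hyper, -0.07 in sham hyper, 1.57 in pressure hypo and 0.96 in sham hypo scar. In pig 50 it was 1.47 in pressure hyper, 0.65 in sham hyper, 1.02 in pressure hypo and 1.48 in sham hypo scar. The sham hyper biopsies were the 2 lowest of the 8.

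Late scar held both a high and several low values. In pig 49 SGCE was 1.06 in pressure hyper, 1.07 in sham hyper, -0.20 in pressure hypo and 0.40 in sham hypo scar. In pig 50 it was 1.98 in pressure hyper, 0.66 in sham hyper, 0.51 in pressure hypo and 0.47 in sham hypo scar. The 4 late hyper scars lay between 0.66 and 1.98 and the 4 late hypo scars between -0.20 and 0.51, as the plot of SGCE by group shows. What share of all features separates these biopsies in this way is not given.

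**Figure D1:**
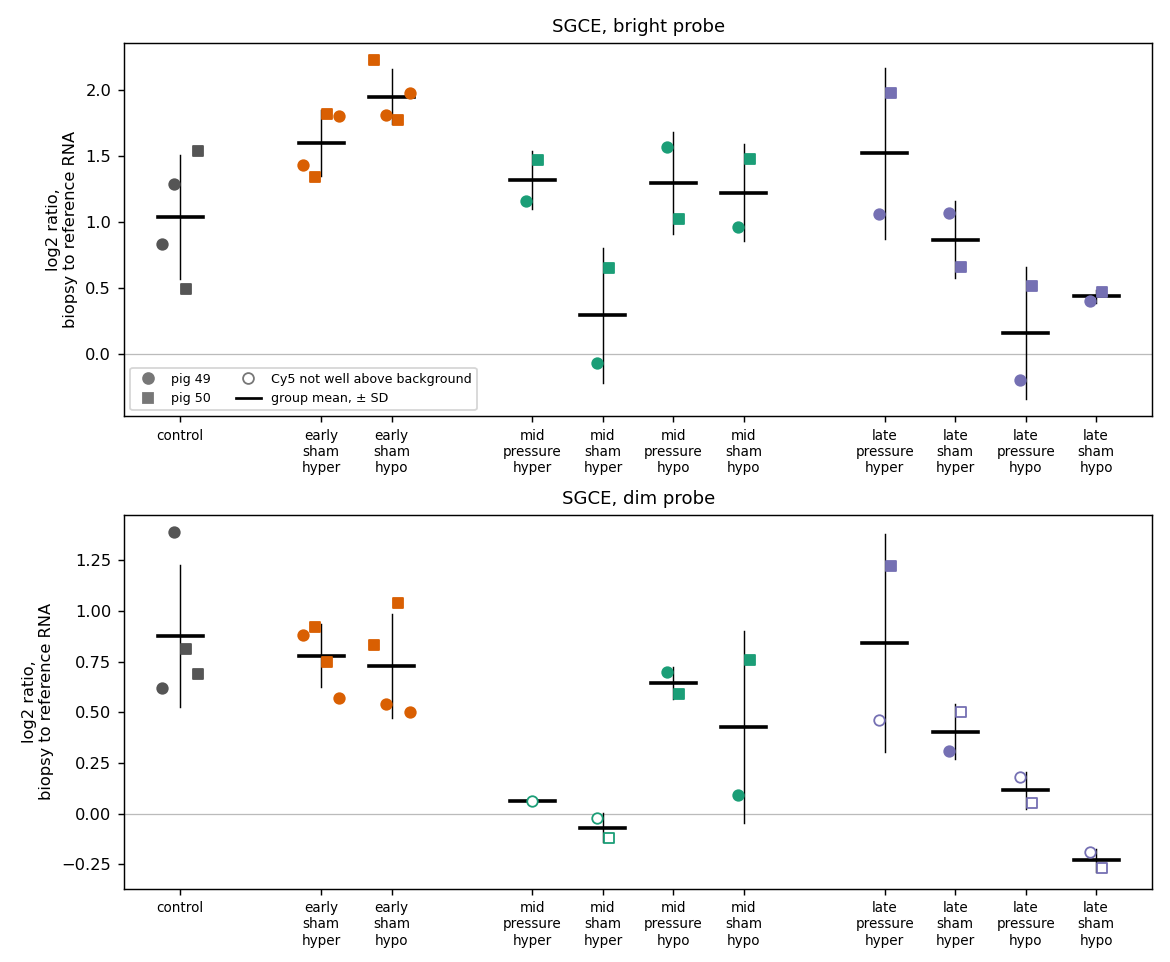
Log2 ratio of biopsy to reference of the 2 SGCE probes (upper panel the brighter, lower panel the dimmer) in 11 groups from control through early, mid and late scar. Circles are pig 49, squares pig 50, open symbols are arrays where the Cy5 signal was not well above background, and bars give mean ± SD. By the brighter probe early scars lie between 1.34 and 2.23 and control biopsies between 0.49 and 1.54; by the dimmer probe early scars lie between 0.50 and 1.04 and control biopsies between 0.62 and 1.39.

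Ordered by group mean, SGCE ran from early hypo (1.95 ± 0.21, SD, n = 4) and early hyper (1.60 ± 0.25, SD, n = 4) through late pressure hyper (1.52), mid pressure hyper (1.32), mid pressure hypo (1.29), mid sham hypo (1.22) and control (1.04 ± 0.47, SD, n = 4). Then came late sham hyper (0.86), late sham hypo (0.44), mid sham hyper (0.29) and late pressure hypo (0.15). Between neighbours in this order the ranges overlapped in every case but 1: late sham hyper lay above late sham hypo, with group means 0.42 apart and a residual SD of 0.37.

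In early scar SGCE was 0.74 ± 0.21 (SE) above control skin, a 1.67-fold difference. It was 0.19 without the cap on local background, a step chosen after the data were seen, and 0.31 with the mean of both probes. Mid scar as a whole differed from control by -0.01 ± 0.21 and late scar by -0.29 ± 0.21. These comparisons use the same 4 control biopsies. On the 2 slides that held both early scar and control the difference was 0.51 and 1.53. As background, 38.8% of all 18768 features passed the threshold (Benjamini-Hochberg adjusted p of limma below 0.05) in early scar against control, 33.8% in mid scar and 39.7% in late scar, so a difference from control is common among the features of these arrays. The median over all features was 0.11, 0.10 and 0.10 in these comparisons.

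The dimmer SGCE probe did not show the early difference. In the 8 early scars its lowest, median and highest values were 0.50, 0.79 and 1.04. In control skin it read 0.62 and 1.39 in pig 49 and 0.81 and 0.69 in pig 50, so the early scars lay within or just below the control range. Its early difference from control was -0.12 ± 0.16, the opposite sign to that of the brighter probe. In mid scar it was -0.60 ± 0.17 from control, with the outlier-marked spot of the pressure hyper biopsy of pig 50 left out, and in late scar -0.59 ± 0.16. The 2 probes correlated with r = 0.65 and rho = 0.64 over the 27 arrays on which both were read, from 2 pigs and 7 slides. Which transcripts each probe reads was not tested.

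Within sham-treated scar, where treatment does not differ, SGCE was lower at the later phases. Its 4 mid sham values were 0.96 and below in 3 biopsies and 1.48 in 1, and 3 of 4 lay below every early scar. The 4 late sham values were 0.40 to 1.07, and the lowest of the 8 early values was 1.34. What share of all features separates late from early sham scar in this way is not given. The difference was -1.02 ± 0.21 for mid against early sham scar and -1.12 ± 0.21 for late against early sham scar, 2.03- and 2.18-fold lower. The dimmer probe had the same sign, at -0.57 ± 0.16 for mid and -0.67 ± 0.16 for late sham scar. Of all features 6.45% passed the threshold in mid against early sham scar and 19.9% in late against early sham scar. Within a slide, the mid difference was -1.87 to 0.14 on 3 slides, lower on 2 and higher on 1, and the late difference was -1.21 on the 1 slide that held both.

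Fibroblast genes moved in the same comparisons. The list has 14 genes, of which COL1A1 and PDGFRA, among others, were not measured. The 10 measured were COL1A2, COL5A1, COL5A2, DCN, LUM, THY1, DPP4, POSTN, CDH11 and ASPN. Their mean level, formed like the muscle level, was 0.31 to 1.54 in early scar, -1.05 to 0.49 in mid scar and -1.26 to 0.69 in late scar, against -2.43 to -1.20 in control skin. In early scar 10 of 10 rose against control, in mid scar 8 and in late scar 6, where 38.8, 33.8 and 39.7% of all features passed. Between mid and early sham scar 6 of 10 fell, and between late and early sham scar 5 of 10 fell, where 6.45 and 19.9% of all features passed. Without the cap on local background, 2 of all 18768 features passed in mid and 11 in late against early sham scar. Most of the mid falls therefore did not pass without the cap. SGCE correlated with this level with r = 0.63 and rho = 0.66 over 28 arrays, r = 0.64 without the 2 arrays of highest muscle level, and r = 0.73 over the 24 scar arrays alone, all from 2 pigs. For the dimmer probe r was 0.24 over 27 arrays. The part of fibroblast content in the SGCE differences was not tested.

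**Figure D2:**
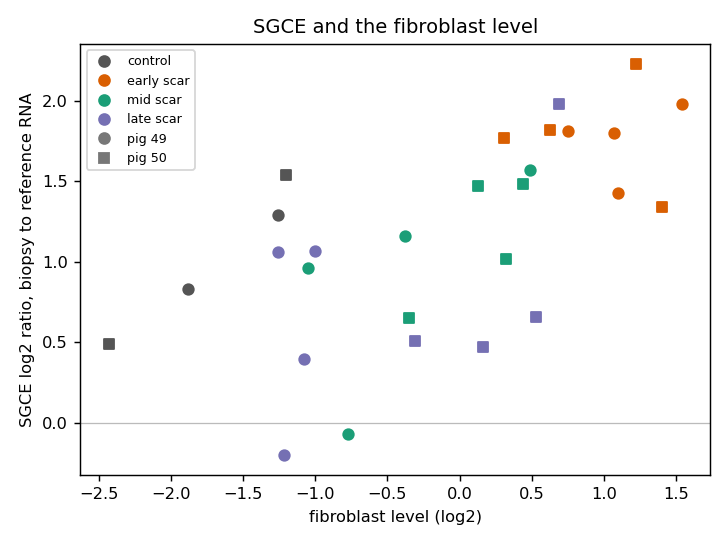
Log2 ratio of SGCE (brighter probe) on the vertical axis against the fibroblast level on the horizontal axis, the mean of 10 genes as log2 ratio minus the median over arrays; each point is 1 of 28 arrays, coloured by phase. Control arrays lie at -2.43 to -1.20 on the horizontal axis and early scars at 0.31 to 1.54, and SGCE is higher where the fibroblast level is higher, with r = 0.63.

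SGCD was between 0.02 and 0.85 in control and early scar, and its values outside this range were all in mid and late scar. In control skin it was 0.52 and 0.72 in pig 49 and 0.52 and 0.80 in pig 50. In early hyper scar it was 0.74 and 0.02 in pig 49 and 0.80 and 0.56 in pig 50. In early hypo scar it was 0.49 and 0.57 in pig 49 and 0.82 and 0.85 in pig 50. Early scar and control overlapped, with a difference of -0.04 ± 0.27.

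In mid scar 1 biopsy stood high. In pig 49 SGCD was 2.25 in pressure hyper, -0.03 in sham hyper, 1.06 in pressure hypo and 0.10 in sham hypo scar. In pig 50 it was 0.77 in pressure hyper, -0.08 in sham hyper, 0.43 in pressure hypo and 0.73 in sham hypo scar. The 2.25 belongs to the array with the second highest muscle level.

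Late scar had the same shape. In pig 49 SGCD was 2.72 in pressure hyper, 0.43 in sham hyper, -0.08 in pressure hypo and 0.33 in sham hypo scar. In pig 50 it was 0.82 in pressure hyper, 0.18 in sham hyper, -0.14 in pressure hypo and 0.19 in sham hypo scar. The 2.72 belongs to the array with the highest muscle level, and the plot of SGCD by group shows both arrays apart from all others.

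**Figure D3:**
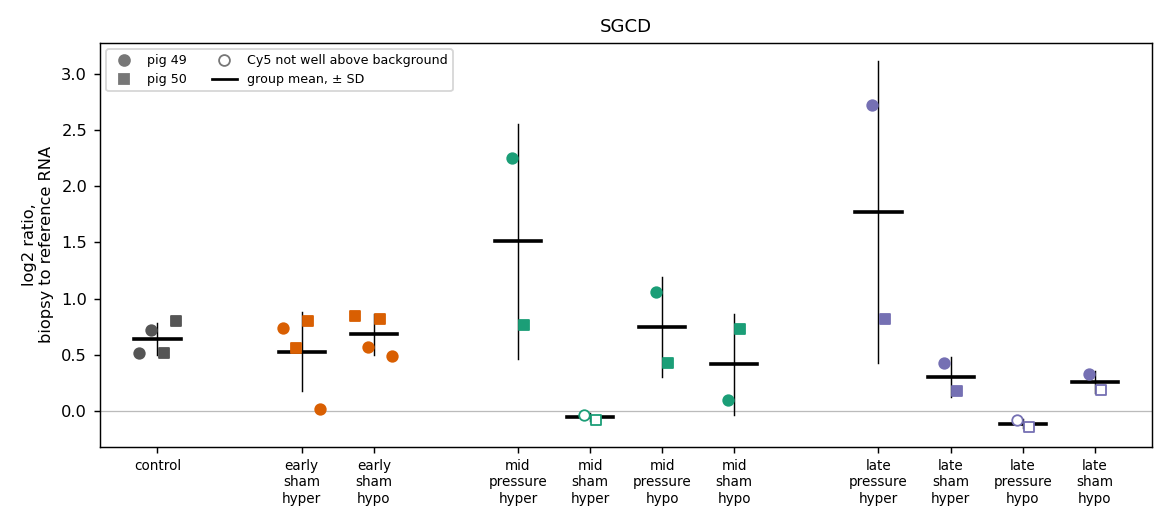
Log2 ratio of biopsy to reference of the SGCD probe in 11 groups from control through early, mid and late scar. Circles are pig 49, squares pig 50, open symbols are arrays where the Cy5 signal was not well above background, and bars give mean ± SD. The values 2.25 and 2.72 are the mid and late pressure hyper biopsies of pig 49; the other 26 lie between -0.14 and 1.06.

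By group mean SGCD was highest in late pressure hyper (1.77), mid pressure hyper (1.51) and mid pressure hypo scar (0.75), followed by early hypo (0.68 ± 0.18, SD, n = 4), control (0.64 ± 0.15, SD, n = 4) and early hyper scar (0.53 ± 0.35, SD, n = 4). Mid sham hypo (0.42), late sham hyper (0.30), late sham hypo (0.26), mid sham hyper (-0.06) and late pressure hypo (-0.11) followed. The ranges of neighbours overlapped except that late sham hypo lay above mid sham hyper, and the residual SD was 0.48. Against control, SGCD differed by 0.01 ± 0.27 in mid and -0.08 ± 0.27 in late scar, and without the 2 arrays of highest muscle level by -0.18 ± 0.16 and -0.33 ± 0.16. Mid sham scar was -0.43 ± 0.27 and late sham scar -0.32 ± 0.27 from early sham scar, and neither contains the 2 arrays. Late scar as a whole was -0.29 ± 0.17 from mid scar for SGCE and -0.10 ± 0.22 for SGCD. Of all features 0.00533% passed in this comparison (1 feature by limma, with 2158 at an unadjusted p under 0.05). On the 4 slides that held both phases, late scar was lower each time, by -1.26 to -0.39 for SGCE and -0.88 to -0.42 for SGCD. The dimmer SGCE probe was lower on 2 of these slides and higher on 2. Each of these slides held 1 late biopsy, mostly hypo, so treatment and pigmentation are not balanced there.

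The hyper against hypo difference of SGCE was negative in early and mid scar and positive in late scar. Over all phases the difference was 0.11 ± 0.15, with 0.0107% of all features passing. In early scar hyper was -0.35 ± 0.24 from hypo, lower in 3 of 4 pairs of the same pig and side. In mid scar it was -0.45 ± 0.24, again lower in 3 of 4 pairs. In late scar hyper was 0.90 ± 0.24 above hypo, 1.86-fold. The 4 late pairs differed by 0.67 and 1.26 in pig 49 and by 0.18 and 1.47 in pig 50, higher in hyper each time. How many of all features do so is not given. Some pairs carry different title numbers, and a pair may then join biopsies of different scars. In late scar 5.02% of all features passed, and since the genes were chosen with such results known, the place of SGCE among them is not a result. Of the 942 features that passed, 95 were higher and 847 lower in hyper scar. Cy5 was above background for 31.4 and 33.9% of probes in the sham and pressure late hypo biopsies of pig 50, the lowest of all arrays. In pig 49 the late hypo biopsies had 39.8 and 41.2%, and the 4 late hyper biopsies had 40 to 47.1%. The part of this in the late difference was not tested.

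The dimmer SGCE probe showed the same late difference. Late hyper was above late hypo in 4 of 4 pairs, by 0.29 to 1.17, with a mean of 0.68 ± 0.19. Again, how many of all features do so is not given. The dimmer probe was above background in 2 of 4 late hyper and 0 of 4 late hypo biopsies, so these late values lie near the limit of the scanner. In mid scar hyper was below hypo in 3 of 3 pairs, by -0.88 to -0.12, with none of the 3 hyper biopsies above background. On the 1 slide that held late hyper and hypo scar, the difference was 1.05 by the brighter and 1.04 by the dimmer probe. Without the 2 arrays of highest muscle level, of which 1 is late hyper, the brighter probe gave 1.1 ± 0.27.

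SGCD also was higher in late hyper than late hypo scar, but much of that difference lay in 1 array. It was 0.96 ± 0.31 with all arrays and 0.47 ± 0.21 without the 2 of highest muscle level. With the muscle level as a covariate it was 0.66 ± 0.20. The 4 late pairs differed by 2.80 and 0.10 in pig 49 and by 0.96 and -0.01 in pig 50, so the 2 pressure pairs were apart and the 2 sham pairs were not. In the Cy5 channel SGCD in late pressure hyper scar was at least 3.8-fold higher than in late pressure hypo scar, where it was not above background, and at least 2-fold higher without the muscle-rich array. These bounds are on another scale than the ratio. Over all phases hyper differed from hypo by 0.41 ± 0.19, and by 0.06 ± 0.12 without the 2 arrays.

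For SGCD and the brighter SGCE probe the difference of pressure from sham scar was larger in hyper than in hypo scar, which was not tested as a difference. Over mid and late scar SGCD was 0.75 ± 0.22 higher in pressure than in sham scar, and 0.31 ± 0.15 without the 2 arrays. Of all features 0% passed the threshold in this comparison (limma, with 959 at an unadjusted p under 0.05). In hyper scar SGCD was 1.52 ± 0.31 higher with pressure, although SGCD was not above background in the 2 mid sham hyper biopsies. The 4 pressure biopsies were at 0.77, 0.82, 2.25 and 2.72 and the 4 sham biopsies at -0.08 to 0.43. The share of all features that separate in this way is not given. Without the 2 arrays this was 0.64 ± 0.23. The hyper pairs differed by 0.85 in mid and 0.64 in late scar of pig 50, and by 2.28 and 2.29 in pig 49. In hypo scar the difference was -0.02 ± 0.31, with pairs at 0.96 and -0.31 in mid and -0.41 and -0.33 in late scar. In the Cy5 channel mid pressure hyper scar was at least 2.95-fold higher than mid sham hyper scar, where SGCD was not above background, and at least 1.66-fold higher without the muscle-rich array.

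SGCE was 0.37 ± 0.17 higher in pressure than in sham scar, and 0.50 ± 0.19 without the 2 arrays. In hyper scar the difference was 0.84 ± 0.24, 1.79-fold, and 1.1 ± 0.30 without the 2 arrays. The pairs of hyper scar were 1.23 and 0.82 apart in mid and -0.01 and 1.32 apart in late scar. In hypo scar it was -0.10 ± 0.24, with pairs at 0.61 and -0.46 in mid and -0.60 and 0.03 in late scar. The dimmer probe gave 0.30 ± 0.14 over both pigmentations, 0.31 ± 0.21 in hyper and 0.28 ± 0.19 in hypo scar. By this probe the 2 pigmentations were thus nearly alike. Within slides, pressure minus sham of SGCE was -0.97 to 1.21 on 5 slides, higher on 3, and that of SGCD was -0.88 to 1.20, higher on 4. In hyper scar alone the 3 slides with both gave 0.50 to 0.91 for SGCE and 0.38 to 2.08 for SGCD.

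**Figure D4:**
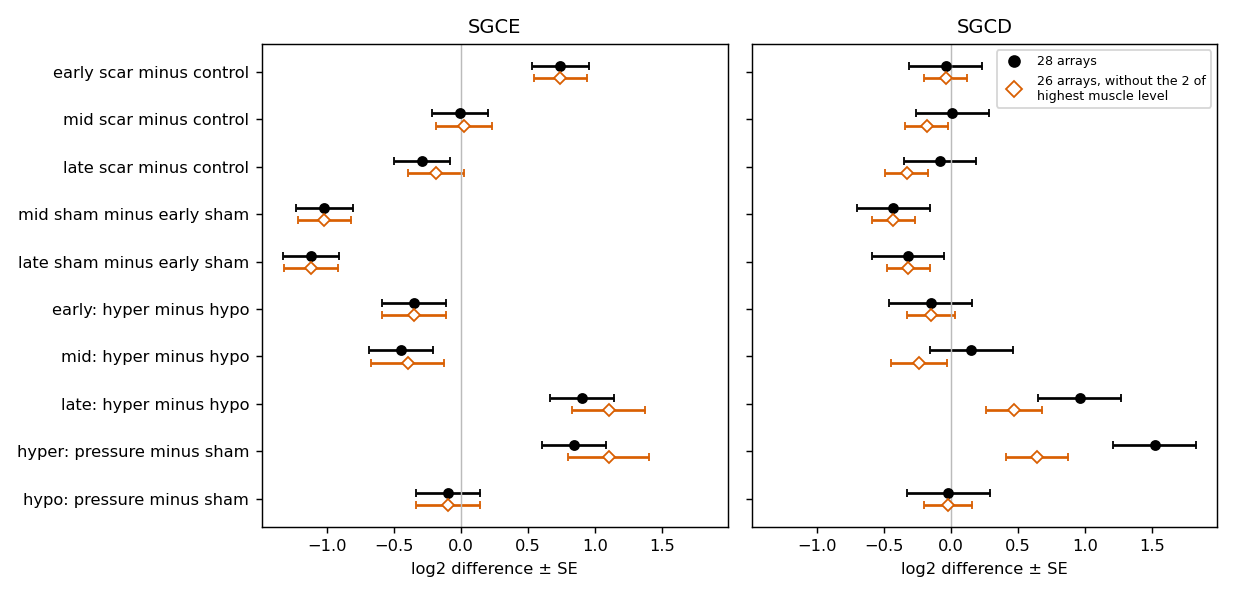
Log2 difference ± SE of SGCE and SGCD in each comparison, each named with the group on top of the difference first. Black circles use 28 arrays and orange diamonds 26, without the 2 of highest muscle level; SGCD in pressure against sham hyper scar moves to 0.64 without them, against 1.52 with them, while SGCE in late hyper against hypo scar is 1.1 without and 0.90 with them.

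SGCD was highest on the 2 arrays of highest muscle level and SGCE was not. On the arrays with muscle levels of 4.66 and 3.87 SGCD was 2.72 and 2.25, its 2 highest values. On the arrays with muscle levels of 2.49 and 1.52 SGCD was 0.82 and 0.43, within the range of control and early scar. Because the first 2 arrays are separate from the rest, no correlation of SGCD with the muscle level is given over all arrays. Over the other 26, r between SGCD and muscle level was -0.08 and rho -0.23, and over the 24 arrays with a muscle level of at most 1 r was -0.37. In the linear model with the muscle level added, the slope of SGCD was 0.29 ± 0.05 (SE) per unit of muscle level, and 0.11 ± 0.09 without these 2 arrays. SGCE had a slope of -0.06 ± 0.06 and was 1.06 and 1.16 on the 2 muscle-rich arrays, inside its range elsewhere. The median slope over all features was -0.01.

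Dystrophin DMD, the cytoplasmic partner of the muscle complex, followed SGCD. It was 1.90 and 1.32 on the 2 muscle-rich arrays and -1.18 to 0.01 on the other 26, with a slope of 0.34 ± 0.06, and 0.03 ± 0.08 without the 2. CAV3, the caveolin of muscle, had a slope of 0.32 ± 0.06, and of 0 ± 0.09 without them. SGCA, alpha-sarcoglycan of muscle, had 0.09 ± 0.05. CAV3 was above background on 1 of 4 control, 4 of 8 early, 1 of 8 mid and 1 of 8 late arrays. Its other values lie near background, so its slope without the 2 arrays cannot show whether it follows muscle there. DMD was above background on 21 of 28 arrays, and on no mid sham hyper or late pressure hypo array. Its other probes that passed the filter are not given. Without the 2 muscle-rich arrays, r of SGCD over the other 26 was 0.56 with DMD (rho = 0.51) and 0.72 with SGCE (rho = 0.72). Over the 24 arrays with a muscle level of at most 1 these r were 0.55 and 0.71, and DMD was at rank 117 of 2644 genes. Over all 28 arrays r between SGCE and SGCD was 0.36.

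**Figure D5:**
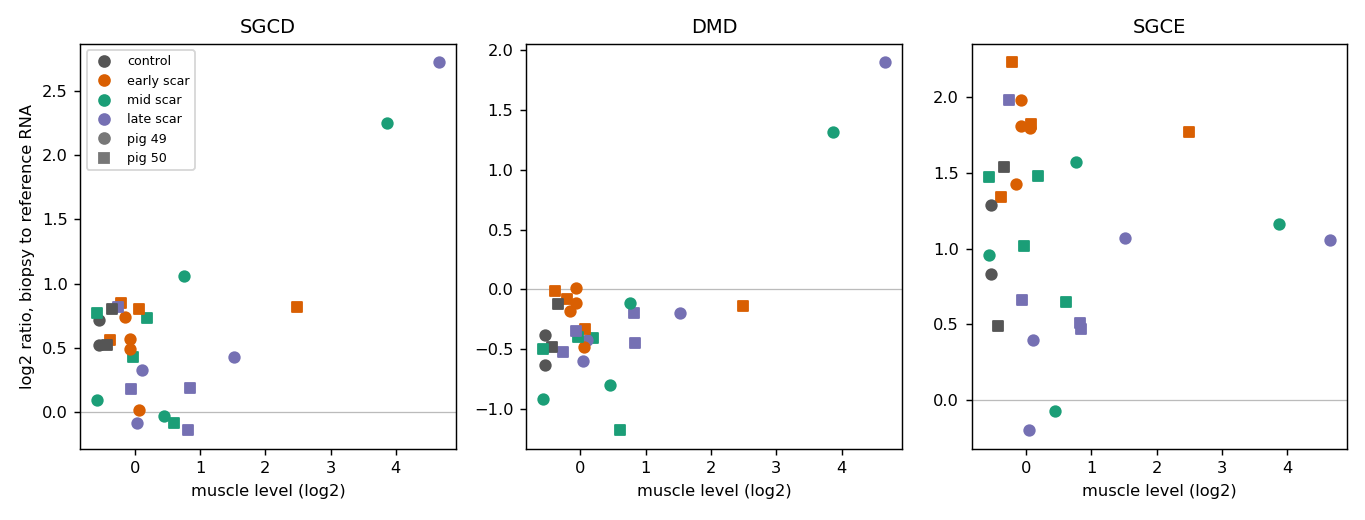
Log2 ratio of SGCD, DMD and SGCE (panels) on the vertical axis against the muscle level on the horizontal axis, 28 arrays coloured by phase. SGCD and DMD reach their highest values on the arrays with muscle levels of 3.87 and 4.66, where SGCE is 1.16 and 1.06.

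The genes whose profile was most like that of SGCE included matrix and secreted proteins. Among 2644 other genes with a symbol, ranked by r over the 28 arrays, the first 6 were C2H5orf15 (0.88), ANGPTL2, a secreted angiopoietin-like glycoprotein (0.88), FBN1, the microfibril protein fibrillin-1 (0.86), MGP, matrix Gla protein (0.85), TEAD1, a transcription factor of the Hippo pathway (0.84), and the secreted C1QTNF2 (0.84). Lowest were the endoplasmic reticulum protein TMEM33 (-0.83), the mRNA export factor RAE1 (-0.83) and the antiproliferative TOB1 (-0.82). Over the 24 arrays with a muscle level of at most 1 the first 6 had r of 0.91, 0.89, 0.89, 0.86, 0.88 and 0.87. The median r with SGCE was -0.03 over all genes and 0.62 over the 10 fibroblast genes (0.03 to 0.77).

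Of these 6 genes 5 rose in early scar against control by limma with Benjamini-Hochberg adjustment, where 38.8% of all features passed in either direction. They were ranked on the same arrays, so this is not independent of their likeness to SGCE. ANGPTL2 rose by 2.50 (adjusted p = 0.000178), C1QTNF2 by 1.62 (adjusted p = 0.0016) and FBN1 by 1.40 (adjusted p = 0.000214). MGP rose by 1.03 (adjusted p = 0.0324) and TEAD1 by 0.90 (adjusted p = 0.000429), while C2H5orf15 was 0.34 higher with an adjusted p of 0.15.

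For SGCD the most alike genes depended on the muscle-rich arrays. Over 28 arrays they were FAM213B (0.90), the glycolytic enzyme PGM1 (0.89), DMD (0.89), the transcription factor SOX7 (0.88), the mitochondrial channel VDAC3 (0.84) and the muscle LIM protein FHL1 (0.84). The lowest were PTMA, prothymosin alpha (-0.79), ARL6IP6 (-0.70) and the calcium pump ATP2A2 (-0.69). Over the 24 arrays with a muscle level of at most 1 these 6 had r of 0.60, 0.62, 0.55, 0.46, 0.42 and 0.34, at ranks 73, 57, 117, 248, 322 and 485, and the top genes were ANGPTL1 (0.78), C2H5orf15 (0.76), NNAT (0.76) and MFGE8 (0.75). PTMA stayed lowest, at -0.75. Without the 2 arrays of highest muscle level the median r of the 32 muscle genes with SGCD was -0.05 (-0.61 to 0.21), against 0.64 (-0.35 to 0.81) with them. With SGCE it was -0.05 without and -0.04 with the 2 arrays.

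Of the other listed sarcoglycans, dystrophin family genes, caveolins, enzymes of dystroglycan glycosylation and laminin receptors 9 were measured. Of these 4 rose in early scar, 2 in mid and 2 in late scar against control, where 38.8, 33.8 and 39.7% of all features passed in either direction. The genes that rose were a caveolin, 2 of the enzymes and an integrin, and neither SGCA nor DMD passed. The median difference of the 9 was 0.43, 0.03 and 0.24, beside 0.11, 0.10 and 0.10 for all features. Between mid and early sham scar 2 of 9 fell and between late and early sham scar 3 fell, where 6.45 and 19.9% of all features passed. The medians were -0.29 and -0.27, against 0.04 and 0.03 for all features. In late against mid, hyper against hypo and pressure against sham scar 0 of 9 passed, where 0.00533, 0.0107 and 0% of all features passed. In late hyper against late hypo scar 0 of 9 passed, where 5.02% of all features passed. With shares this low, a count of 0 among 9 says little of these genes.

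Among the other sarcoglycans only SGCA could be followed. It was 0.43 ± 0.17 higher in early scar than in control, with an adjusted p of 0.0519, and 0.03 and 0.15 higher in mid and late scar. SGCB was above background on 1 of 28 arrays and SGCZ on 0, and neither passed the filter. DMD was 0.24 ± 0.30 higher in early scar than in control (adjusted p = 0.566), 0.70 ± 0.25 higher in pressure than in sham scar (adjusted p = 0.905) and 0.62 ± 0.35 higher in late hyper than in late hypo scar (adjusted p = 0.315). Without the 2 arrays these last were 0.16 ± 0.12 (adjusted p = 0.852) and 0.01 ± 0.17 (adjusted p = 0.99). CAV3 was 0.12 higher in early scar (adjusted p = 0.782). CAV1, the caveolin of fibroblasts, endothelium and fat, rose in early scar (0.68 ± 0.26, adjusted p = 0.0418), mid scar (0.75, adjusted p = 0.0306) and late scar (0.91, adjusted p = 0.00809), but the call was lost under 10 of 20 alternatives in early scar (adjusted p up to 0.307) and 11 of 20 in mid scar (up to 0.701), and in late scar its sign was the opposite with median centring in place of loess (-0.14).

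The list of genes for the glycosylation of dystroglycan, the laminin-binding core of the complex, gave 4 measured genes of 21 listed. POMGNT2, which extends the sugar on dystroglycan, rose in early scar (1.21 ± 0.24, adjusted p = 0.000464) and fell in mid (-0.94, adjusted p = 0.024) and late sham scar (-0.95, adjusted p = 0.0101) against early sham scar. Without the cap none of these passed (early scar, adjusted p = 0.061). Its r with SGCE was 0.77, rank 40 of 2644. POMGNT1 rose in early scar (0.43 ± 0.13, adjusted p = 0.0146) and fell in late sham scar (-0.39, adjusted p = 0.0449), calls that were lost under 8 and 11 of 20 alternatives, the second also without the animal block. GMPPB (0.22, adjusted p = 0.259) and DPM1 (-0.03) did not pass in early scar. ITGB1, the integrin beta-1 chain of laminin and collagen receptors, was the single measured gene of 22 matrix ligands and receptors. It rose in early (2.35 ± 0.18, adjusted p = 1.91e-08), mid (1.72, adjusted p = 1.96e-06) and late scar (1.1, adjusted p = 0.000121) against control, but with median centring in place of loess the late difference was 0.04 (adjusted p = 0.911).

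Imprinted genes were set beside SGCE because SGCE is one. Of 10 measured of 18 listed, 2 rose in early scar, 1 fell in mid scar, and 2 rose and 1 fell in late scar against control, with medians of 0.14, -0.06 and -0.06, while 38.8, 33.8 and 39.7% of all features passed. Between mid and early sham scar 2 fell and between late and early sham scar 3 fell, where 6.45 and 19.9% of all features passed. NDN (necdin, a growth suppressor) rose in early scar by 0.81 ± 0.17 (adjusted p = 0.00104) and was -0.88 and -1.04 in mid and late against early sham scar (adjusted p = 0.00827 and 0.000909), with r = 0.83 to SGCE, rank 9. MEST, an imprinted gene of mesoderm, was above background on 7 of 8 early scar arrays, 1 of 4 mid sham and 0 of 4 late sham arrays, against 0 of 4 control arrays, and would not have passed the filter without early scar. On the Cy5 scale its signal in early scar was at least 1.48-fold that in control and at least 1.48-fold that in late sham scar. MEST is counted above among the genes that rose in early scar and fell in sham scar. Because it was admitted by its early scar signal, those calls are not a test of it. Without the cap on local background, the early rises of NDN and MEST did not pass (NDN 0.04 with adjusted p = 0.918, MEST adjusted p = 0.167), nor did their falls in sham scar.

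PEG10, the neighbour of SGCE, was below control at each phase. It was -0.35 ± 0.17 from control in early scar (adjusted p = 0.105) and fell in mid (-0.56, adjusted p = 0.0137) and late scar (-0.65, adjusted p = 0.00528), with the outlier-marked spot of the late pressure hypo biopsy of pig 50 left out. Its r with SGCE was 0.42, rank 439 of 2644, and its SD over all arrays was 0.36, against 0.63 for SGCE. GRB10, an adaptor of growth factor receptors, rose in late scar (0.61 ± 0.20, adjusted p = 0.0188), IGF2, a growth factor, rose by 0.88 (adjusted p = 0.0272), and the signs of both were the opposite with median centring (-0.37 and -0.08). NNAT, neuronatin, fell in late against early sham scar (-0.69, adjusted p = 0.0293), where it was above background on 1 of 4 late sham and 8 of 8 early arrays, with r = 0.83 to SGCD, rank 9.

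Markers of other cell types were also set beside the 2 genes. The mean Schwann cell level, 3 measured of 8 listed, was -0.38 to 0.16 in early, -0.37 to 0.31 in mid and -0.35 to 0.74 in late scar, against -0.13 to 0.17 in control skin, and correlated with SGCE at -0.56 and with SGCD at -0.54 over 28 arrays. The r of SGCE was -0.50 with keratinocyte, 0.45 with macrophage (5 of 7 measured), -0.40 with smooth muscle and pericyte (5 of 15), -0.11 with adipocyte (8 of 8) and -0.04 with endothelial genes (5 of 9). The r of SGCD was 0.53 with adipocyte genes over 28 arrays and 0.19 without the 2 arrays of highest muscle level, and with fibroblast, keratinocyte, macrophage, smooth muscle and endothelial genes it was between -0.23 and 0.09 over 28 arrays. The part of these cell types in the SGCE and SGCD differences was not tested.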

How the data were processed

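Per the labels, each biopsy (Cy5) was hybridised with universal pig reference RNA (Cy3) on 1 Agilent array, 28 arrays on 7 slides of 4. Per the file headers and the submitters' processing notes, Agilent Feature Extraction 10.7.1.1 gave the median intensity of each spot and its local background. The authors also deposited log2 ratios in a value table, which equal the scanner program's processed ratio within 0.001 for 99.97 to 99.99% of probes and have column medians of 0.0124 to 0.26; their other steps are not given in the sources used here. The scanner program's processed ratio is also deposited on a log10 scale.

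Local backgrounds were capped at the 99th percentile of their array and channel, a step chosen after the data were seen, and corrected by normexp (offset 50). Loess was run within arrays in limma 3.58.1 (R 4.3.3). Spots marked as outliers were set to missing. Probes with Cy5 well above background on at least 4 arrays were kept (24513 of 43603). Symbols came from RefSeq accessions (6924 probes). The probe of highest mean Cy5 stood for a gene, which gave 18768 features, of which 2646 have a symbol. A single limma model held a mean for each of 11 groups with the animal as block, and gave Benjamini-Hochberg adjusted p over all features (threshold 0.05). The fit was tested on simulated data.

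The replicate labels name animals, so the pairing comes from the labels; deviations from group means correlated by 0.04 between arrays of the same pig and -0.04 between pigs. SGCE, SGCD, the marker lists and the lists of complex and imprinted genes were chosen with earlier results of these data known. Named genes are every measured sarcoglycan and dystrophin family gene, up to 4 of lowest p of each list, and the 6 most and 3 least alike profiles. Bounds are given as "at least" where a probe was not above background on any array of a group: the mean log2 Cy5 of the brighter group against the mean, over arrays of the dimmer group, of the higher of the probe's own signal and the array's lowest signal above background. The alternatives were other background, scaling, filter, probe and block choices, single pigs, and each array left out. No sequence or genome position of a probe was used, because none of the files used here holds one. The number of arrays limits the precision.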

Additional observations from a re-analysis of the deposited data

Results flagged for a closer look

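SGCD differed in opposite directions between late hyper and late hypo scar under pressure. In late hyper scar the 2 pressure biopsies were above their sham partners by 1.47 on average, and in late hypo scar the 2 pressure biopsies were below theirs, by -0.37 on average, which leaves 1.83 between them. Every pair went the way of its class, but SGCD was not above background in both late pressure hypo biopsies and in 1 of their 2 sham partners, so the hypo pairs rest on signals near background. One of the hyper pairs holds the array of highest muscle level, and the other differed by 0.64. The difference was not tested.

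The dimmer SGCE probe reversed between phases in hyper against hypo scar. Late hyper scar was above late hypo scar in 4 of 4 pairs, by 0.68 on average, and mid hyper scar was below mid hypo scar in 3 of 3 pairs, by -0.55 on average, which leaves 1.23 between them. The dimmer probe was not above background in the 4 late hypo and the 3 mid hyper biopsies, and in 2 of 4 late hyper biopsies. The brighter probe was higher in 1 and lower in 3 of 4 mid pairs. The difference was not tested.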

How the results depend on the processing

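The late hyper against hypo difference of SGCE was positive under 21 of 21 alternatives (0.68 to 1.40) and that of SGCD under 20 of 20 (0.38 to 1.77). Late against early sham scar was negative for SGCE under 21 of 21. SGCE in early scar against control was 0.19 without the cap on local background, 0.31 with the mean of all probes and -0.12 with the other probe. The other probe gave -0.60 for mid scar against control, -0.57 for mid and -0.67 for late against early sham scar. Mid against early sham scar was -0.53 without the cap. Median centring in place of loess gave -0.43 for mid scar and -0.97 for late scar against control and -1.67 for late against early sham scar; CAV1, IGF2 and GRB10 in late scar became -0.14, -0.08 and -0.37. SGCD in mid against early sham scar was -1.07 with the scanner program's processed signals and with the authors' value table. SGCD in pressure against sham scar was 1.28 in pig 49 alone and 0.21 in pig 50 alone.

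Of the 9 listed genes of and around the complex, the 4 that passed in early scar became 2 with processed signals, median centring, the value table, the mean of all probes and pig 50 alone. The 2 in mid scar became 1 with those first 4 settings, array weights, the muscle level as covariate, pig 49 alone, only the groups compared, and without the 2 or the 4 arrays of highest muscle level. The 2 in late scar became 1 with the mean of all probes. The 2 in mid against early sham scar became 0 without the cap, with pig and side as replicate block, with slide as a fixed block and in pig 50 alone, became 1 with the Cy5 signal alone, and became 4 in pig 49 alone, with only the groups compared and without the 2 or the 4 arrays. The 3 in late against early sham scar became 1 without the cap and 6 with median centring. Pig 49 alone gave 1 in late against mid, 3 in hyper against hypo and 2 in pressure against sham scar. The 2 settings that leave out 2 or 4 arrays were chosen after seeing the data. The cause was not tested.

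Leaving out each array in turn, complex counts were 1 to 2 in mid, 1 to 5 in late, 0 to 3 in mid against early sham, 1 to 4 in late against early sham and 0 to 1 in pressure against sham scar. The 5 and the last 1 came without the late pressure hyper biopsy of pig 50, the 1 in late scar without the control on side L of pig 50, the 0 without either mid sham hyper biopsy or the mid sham hypo biopsy of pig 49, and the 1 in late sham scar without either late sham biopsy of pig 50 and the 1 in mid scar without any of 6 arrays. Single calls lost without 1 array were CAV1 in late scar (adjusted p = 0.0613) and GRB10 (0.111), both without the control on side L of pig 50, and PEG10 in mid scar (0.0701) without the control on side R of pig 49. Calls lost without any of several arrays were CAV1 in early and mid scar (7 arrays each), IGF2 and NNAT (5 each), POMGNT1 in late sham scar (14), and in mid sham scar POMGNT2, ITGB1 and MEST (3 each) and NDN (2). SGCE ranged over 0.52 to 0.88 in early scar and SGCD over 0.52 to 0.98 in pressure against sham scar.

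Without the animal as replicate block SGCE in early scar was 0.74, and of the calls named here the block changed 1, POMGNT1 in late sham scar. Over all features, calls in mid against early sham scar ranged from 2 without the cap to 2503 in pig 49 alone, against 1211, and in late against early sham scar from 11 to 5696, against 3743. Pig 50 alone gave 2838 in early, 1741 in mid and 4532 in late scar, and pig 49 alone 1278 in pressure against sham scar. Median centring moved the share of calls that were higher to 47.5, 28.9 and 19.8% in early, mid and late scar, against 62, 65.5 and 66.3%, and to 8.2 and 7.7% in mid and late against early sham scar, against 33.9 and 48.5%; it moved the median of all features in late scar to -0.10, against 0.10. SGCD lay near background on 5 of 28 arrays, which limits its low values.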
